A study of Mus musculus with 5 samples.

Results

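U1 and 7SK are small RNAs of the nucleus, and both were among the RNAs with more reads in the Flag-SAMD4 immunoprecipitation (IP) than in the IgG control. The deposited list holds 673 intervals of the mouse genome (build mm9), and an interval was taken when a gene name at it was U1, 7SK or Rn7sk or began with Rnu1. This rule found 15 intervals, 12 for U1 and 3 for 7SK. One of the U1 intervals also carries the name Rnu1b2. Neither Rnu11 nor Rnu12, the RNAs of the minor spliceosome that the rule could also have taken, is a name in the list.

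Osteoblasts were isolated from the calvaria of FVB mice at postnatal day 5 to 7, immortalized with SV40 and infected with a Flag-Samd4 lentivirus. The cells were Samd4PB/PB, which means that a piggyBac transposon disrupts both copies of Samd4, so the tagged protein came from the virus. All groups share these features, and differ in what was pulled out of the extract: 2 libraries came from the anti-Flag IP, 2 from IgG and 1 from the input. Titles and sources name the IgG libraries as IgG, whereas their antibody field reads Flag with other catalogue numbers. Each interval comes with a single IP number and a single IgG number, so the libraries of an antibody cannot be compared with each other, and whether their reads were added is not stated. The input was not analysed here. Total library depth is not known from the table. Whether the cells express osteoblast markers beyond their label was not examined, because the list holds enriched intervals and not expression.

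U1 RNA is the core of the U1 small nuclear ribonucleoprotein (snRNP), in which the first bases of the RNA pair with the 5′ splice site of pre-mRNA. It is made by RNA polymerase II from many near-identical gene copies and carries a ring of Sm proteins. 7SK RNA is made by RNA polymerase III, is bound by LARP7 and by the capping enzyme MEPCE, and holds the elongation kinase P-TEFb inactive through HEXIM proteins. Neither RNA has a poly(A) tail. SAMD4 is the mammalian relative of Drosophila SMAUG, whose SAM domain binds stem-loops in mRNA.

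The 12 U1 intervals lie on 5 chromosomes, and are called U1 A to U1 L here in the order of their positions. U1 A, on chromosome 3 at chr3:96177953-96178108 on the plus strand, is the interval named Rnu1b2. U1 B (chr11:87236378-87236534) and U1 C (chr11:87240228-87240518) are a pair on the plus strand of chromosome 11, with RNAs that span 4.01 kb. A cluster of 6 copies, 3 on each strand, spans 28.3 kb of chromosome 12. It runs from U1 D (chr12:55811305-55811516) through U1 E (chr12:55815215-55815391), U1 F (chr12:55820140-55820303), U1 G (chr12:55830595-55830766) and U1 H (chr12:55835519-55835691) to U1 I (chr12:55839429-55839600). U1 J (chr18:10150990-10151128) and U1 K (chr18:14806221-14806430) lie far apart on the minus strand of chromosome 18, and U1 L (chr19:18807246-18807382) lies on the plus strand of chromosome 19. The 7SK intervals lie at chr2:6997217-6997452 on the minus strand, chr9:78023123-78023432 on the minus strand and chr15:93064802-93065037 on the plus strand. All 15 are annotated as exons of non-coding Ensembl transcripts. Among names that begin with Rnu, or with U and a digit, the list holds U1, Rnu1b2 and U3 only.

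The number of reads was similar in most U1 copies and very uneven among the 7SK copies. The plot of reads by interval shows both. U1 IP reads ran from 822 to 1532 with a median of 1362, and IgG reads from 134 to 262 with a median of 218. Of the 12 copies, 9 held between 1337 and 1532 IP reads and between 199 and 262 IgG reads. The other 3 were lower: U1 A had 1148 IP and 141 IgG reads, U1 H had 831 and 134, and U1 L had 822 and 144. Copies as alike as these can take the same reads. How reads matching more than 1 copy were treated is not stated in any source used, so the copies are not independent measurements of U1 and the copy behind a read is uncertain.

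Among the 7SK intervals, chromosome 9 held the most reads in both columns, with 10769 in the IP and 4072 in the IgG. That is 60.0% of the 7SK IP reads and 70.9% of the 7SK IgG reads. RefSeq (GRCm38.p6) places Rn7sk, the annotated 7SK gene, on chromosome 9 as well. The intervals on chromosomes 2 and 15 were taken by gene name, and whether those loci are active 7SK genes was not examined. The interval on chromosome 15 held 4504 IP and 984 IgG reads, and that on chromosome 2 held 2671 and 687. Each of the 3 had more IP reads, and more IgG reads, than any U1 interval. Reads per base of the interval were 34.7 in the IP on chromosome 9, 19.1 on chromosome 15 and 11.3 on chromosome 2. The U1 copies had a median of 7.56 IP reads per base, and each lay below all 3 of 7SK.

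**Figure D1:**
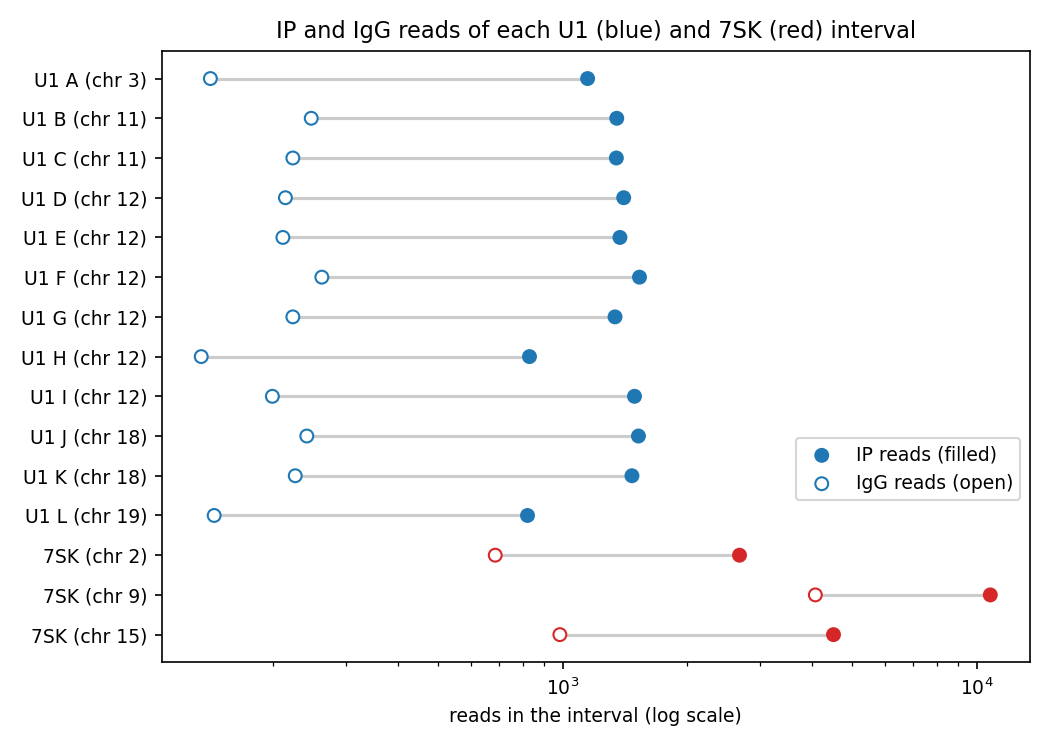
IP reads (filled) and IgG reads (open) in each U1 interval (blue) and 7SK interval (red), on a log axis of reads. The IP value lies to the right of the IgG value in all 15 intervals, and the 7SK interval of chromosome 9 has the most reads of both kinds.

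In all 15 intervals the IP exceeded the IgG. The ratio of IP to IgG reads in U1 ran from 5.47 in U1 B (95% interval 4.77 to 6.29) to 8.14 in U1 A (95% interval 6.83 to 9.77), with a median of 6.26. U1 I, with 1490 reads in the IP against 199 in the IgG, came next to U1 A at 7.49 (95% interval 6.45 to 8.73). For 7SK the ratio was 4.58 on chromosome 15 (95% interval 4.27 to 4.91), 3.89 on chromosome 2 (95% interval 3.57 to 4.23) and 2.64 on chromosome 9 (95% interval 2.55 to 2.74). The copy with by far the most reads thus had the lowest ratio. The 95% intervals (Clopper-Pearson, on the share of IP reads) cover counting error only, since reads amplified by PCR are not independent molecules.

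By an exact two-sided binomial test at an expected IP share of 0.5, with Benjamini-Hochberg adjustment over all intervals, 15 of 15 member intervals were called higher in the IP. The largest adjusted p by this exact test was 1.02e-114, in U1 L. This count says nothing particular to U1 and 7SK, because 100% of the 673 listed intervals were called by the same test. The list was filtered on this difference. What is compared here is the libraries as sequenced, and the spread between cultures does not enter. The p-values of the deposited table match those of a binomial test in which the IgG reads were multiplied by 1.64. With that factor the ratio was 3.34 to 4.98 in U1 and 2.80, 2.38 and 1.62 in 7SK of chromosomes 15, 2 and 9. At the expected IP share of 0.621 that goes with this factor, 15 of 15 members and 100% of all listed intervals were again called.

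A stricter reading sets each interval against the reads of the whole list, in which the IP share was 0.852 and the IP to IgG ratio 5.75. Against this share U1 lay near the summed reads of the list and 7SK below them. The median ratio of the 673 intervals, with those lacking IgG reads taken as highest, was 10.5, above every U1 and 7SK ratio. Of the 12 U1 intervals, 2 were called higher, U1 A (adjusted p = 0.000263, exact binomial test) and U1 I (adjusted p = 0.00146, exact binomial test), and 0 were called lower. All 3 of the 7SK intervals were called lower, with adjusted p = 3.06e-09 on chromosome 15 and 2.55e-17 on chromosome 2 by the exact binomial test. Over all intervals, 25.3% were called higher and 14.0% lower against this share. Every interval behind this share was listed for its excess of IP reads, and the 10 deepest weigh most in it, so it does not measure library depth. Without those 10, the share was 0.840, and 6 U1 intervals were called higher and the same 3 of 7SK lower. How many of all listed intervals were called at 0.840 is not given here, so these counts show nothing particular to U1 or 7SK.

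**Figure D2:**
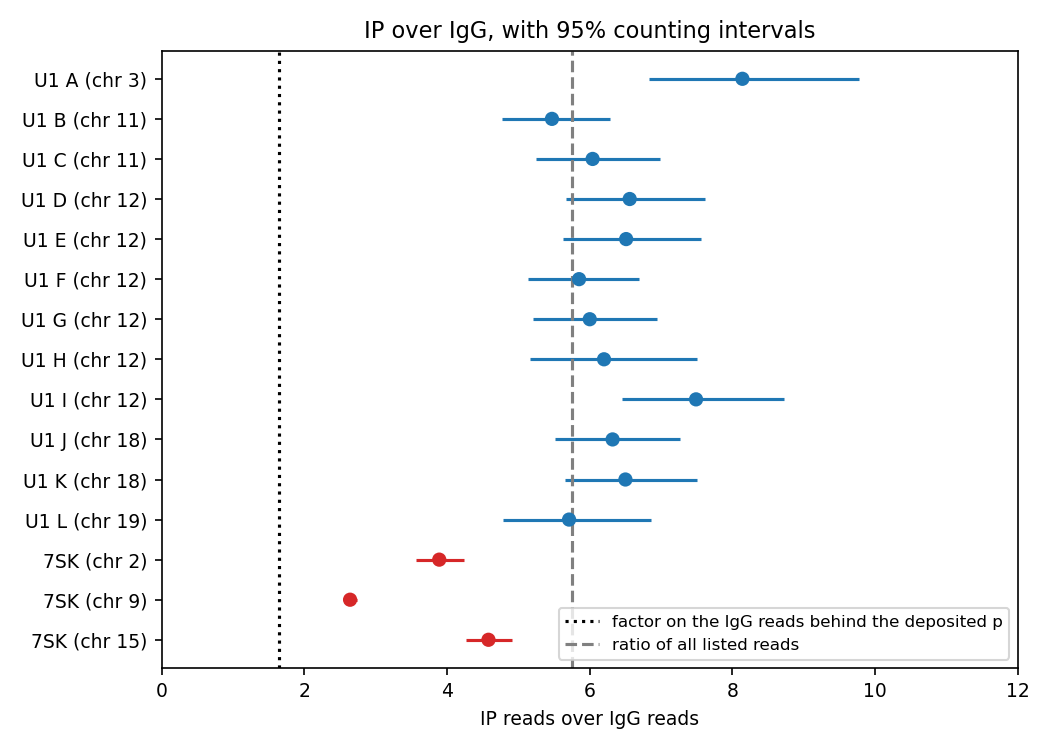
IP reads over IgG reads in each U1 interval (blue) and 7SK interval (red), with 95% counting intervals as bars. The dotted line is the factor of 1.64 and the dashed line the ratio of all listed reads, 5.75; the 3 points of 7SK lie between the lines and most U1 bars cross the dashed one.

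The main question between the RNAs was whether U1 and 7SK differed in how far the IP exceeded the IgG. U1 was higher. Its 12 intervals summed to 15626 reads in the IP and 2465 in the IgG, or 6.34 (95% interval 6.08 to 6.62) as a ratio. The 3 of 7SK summed to 17944 and 5743, or 3.12 (95% interval 3.03 to 3.22). The ratio of U1 was therefore 2.03 times that of 7SK (95% interval 1.93 to 2.14, two-sided Fisher's exact test on the reads, p = 4.47e-166). Any difference in depth between the IP and the IgG cancels here. If reads that match several copies were counted at each, these sums hold some reads more than once, and the interval and p are too narrow. With the deepest interval of each RNA alone, U1 F and 7SK of chromosome 9, the ratio of U1 was 2.21 times that of 7SK (95% interval 1.93 to 2.54, p = 8.15e-35 by Fisher's exact test, two-sided). The size rests in part on chromosome 9, since without that interval U1 was 1.48 times 7SK (95% interval 1.38 to 1.58).

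The same direction was found copy by copy, in a comparison added after the values were seen. Each of the 12 U1 intervals had a higher ratio than each of the 3 of 7SK, and all 36 pairs passed after Benjamini-Hochberg adjustment. The closest pair was U1 B and 7SK of chromosome 15, which differed 1.19 times (95% interval 1.02 to 1.40, two-sided Fisher's exact test, adjusted p = 0.0221). The farthest was U1 A and 7SK of chromosome 9, at 3.08 times. The 36 pairs reuse the same 15 intervals and, if reads were counted at several copies, the same reads, so they are not independent.

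Within each RNA, pairs of copies were compared at very different depths, since each 7SK interval held more reads than any of U1. Of 66 pairs of U1 copies, 13 had an unadjusted p below 0.05 and 1 passed after adjustment, U1 A against U1 B, whose ratios differed 1.49 times (95% interval 1.19 to 1.87, two-sided Fisher's exact test, adjusted p = 0.0286). The other 65 pairs, whose copies may share reads, did not pass, so the order of those copies by ratio is not resolved. They include U1 A and U1 L, which differed 1.43 times (95% interval 1.10 to 1.84, two-sided Fisher's exact test, adjusted p = 0.0962). All 3 pairs of 7SK intervals passed, 1 of them at a smaller difference than that. Chromosome 2 was 1.47 times chromosome 9 (95% interval 1.34 to 1.61, two-sided Fisher's exact test, adjusted p = 3.64e-17) and 0.849 times chromosome 15 (95% interval 0.761 to 0.948, two-sided Fisher's exact test, adjusted p = 0.00330). Chromosome 9 was 0.578 times chromosome 15 (95% interval 0.534 to 0.625, two-sided Fisher's exact test, adjusted p = 1.51e-45).

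The intervals covered nearly the whole of U1 and of 7SK on chromosome 9, and only the front part of the other 7SK copies. Positions in an RNA are counted from 1 at its annotated 5′ end. U1 is annotated with 164 bases in 11 of the copies and with 165 in U1 A. The intervals began at base 10 or 11 in 9 of 12 copies, at base 7 in U1 G, base 15 in U1 H and base 16 in U1 L. The first bases of U1, which pair with the splice site, thus lay outside most of the listed intervals. Such a start inside the RNA was seen in the 7SK intervals as well, and its reason was not tested. At the other end, 10 of 12 intervals reached the last base of U1 and 9 ran past it. U1 C ran on for 137 bases, U1 D for 58, U1 K for 55, and U1 E and U1 H for 23 each. U1 J and U1 L stopped short by 15 and 12 bases. From 83.5% to 96.3% of the RNA was covered, with a median of 93.9%.

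All 3 intervals of 7SK began at base 9. On chromosome 9 the interval ended at base 318 of 331 and covered 93.7% of the RNA. On chromosomes 2 and 15 it ended at base 244 in both, although the annotated RNAs there are 321 and 338 bases long, so that 73.5% and 69.8% were covered. The missing parts of 77 and 94 bases are at the 3′ end. The map of intervals along the RNA shows this common end. The intervals differ in length, which sets the reads per base but enters no ratio of IP to IgG.

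**Figure D3:**
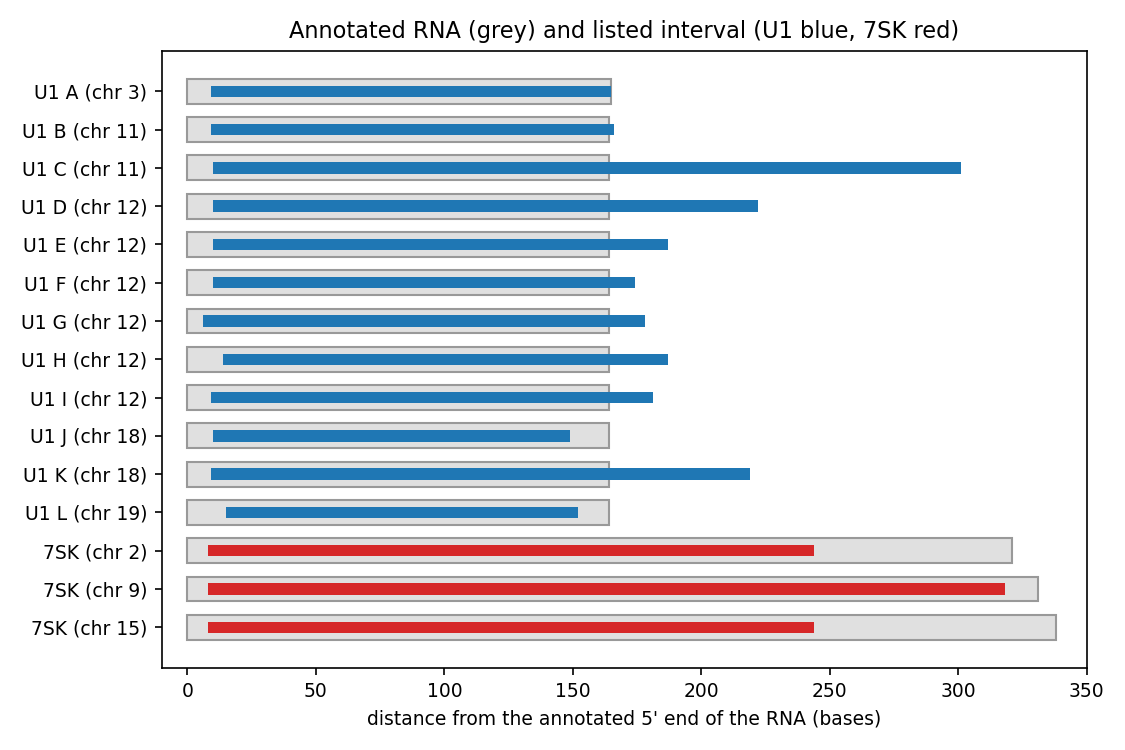
Each annotated RNA (grey) and the listed interval on it (U1 blue, 7SK red), by distance in bases from the annotated 5′ end of the RNA. The 7SK intervals of chromosomes 2 and 15 end at base 244, that of chromosome 9 at base 318, and 9 U1 intervals run past the end of the RNA.

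Other genes are named at 3 of the 15 intervals, U1 J, U1 K and 7SK of chromosome 2, in each case for an intron on the same strand as the small RNA. U1 K lies in an intron of Ss18, a subunit of the BAF chromatin remodelling complex. 7SK of chromosome 2 lies in an intron of Celf2, an RNA-binding regulator of splicing. Each of the 3 genes has 1 listed interval, the one it shares with the small RNA, so no exon of Ss18 or Celf2 is listed away from it. The ratio of U1 J, from 1523 IP and 241 IgG reads, was 6.32 (95% interval 5.51 to 7.27), and that of U1 K, from 1469 and 226, was 6.50 (95% interval 5.65 to 7.51). Both lie inside the range of the 9 U1 intervals of chromosomes 3, 11 and 12. Without the 3 shared intervals the ratio of U1 was 2.09 times that of 7SK (95% interval 1.98 to 2.22).

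Away from the intervals themselves, the nearest listed neighbours of U1 were other RNAs without a poly(A) tail on 2 chromosomes. U1 A lies 105 kb from Hist2h3b, a replication-dependent histone gene, which had 173 IP and 0 IgG reads. U1 B and U1 C lie 20.2 kb and 16.2 kb from the first of 4 intervals of U3, the small nucleolar RNA that guides processing of the ribosomal RNA precursor. The U3 intervals of chromosome 11 held from 2903 to 2981 IP reads and from 771 to 812 IgG reads. With a further interval on chromosome 10, at 2039 and 621, the ratio of U3 ran from 3.28 to 3.87. The ratios of U1 B and U1 C, 5.47 and 6.04 (95% interval 5.24 to 6.99), were thus above each U3 ratio of the same chromosome. U3 was chosen for this description after its values were seen, and the difference was not tested. On chromosome 12 the nearest listed interval, of Nfkbia, is 754 kb from U1 I.

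U1 and 7SK were compared with other RNAs of the list by summed reads, with adjustment over 6 pairs. Both were far below 5S ribosomal RNA and the catalytic RNAs Rmrp and Rpph1, which like 7SK are made by RNA polymerase III. The 25 intervals of 5S RNA held 3139 reads in the IP against 81 in the IgG, at a ratio of 38.8 (95% interval 31.1 to 48.9). U1 was 0.164 times this ratio (95% interval 0.129 to 0.205, two-sided Fisher's exact test, adjusted p = 1.13e-95) and 7SK 0.0806 times (95% interval 0.0637 to 0.101, two-sided Fisher's exact test, adjusted p = 1.64e-243). Each 5S interval held 103 to 138 IP reads. If reads matching several 5S copies were counted at each, these intervals and p-values are too narrow. With the deepest interval of each RNA alone, U1 was 0.169 times 5S RNA (95% interval 0.0452 to 0.450). On the same basis 7SK was 0.0767 times 5S RNA (95% interval 0.0206 to 0.201). Rmrp and Rpph1 together had a ratio of 40.9 (95% interval 38.5 to 43.5), which rests on 1 interval with 40539 of their 43338 IP reads. The ratios of their 2 intervals were 39.5 and 84.8. Against them U1 was 0.155 times (95% interval 0.144 to 0.167) and 7SK 0.0763 times (95% interval 0.0713 to 0.0817), both with p-values by Fisher's exact test too small for the number format. By the median of the ratios, U1 was 0.101 times Rmrp and Rpph1. Other untailed RNAs had lower ratios. The 16 listed intervals named for small nucleolar or Cajal body RNAs ran from 2.52 to 9.25, with a median of 4.09. This range takes in every U1 and 7SK ratio, and the difference was not tested.

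Cytosolic ribosomal protein genes have mRNAs with a tail. Their 22 listed intervals, taken by gene name whichever part of the gene they cover, had a ratio of 4.10 (95% interval 3.87 to 4.35). U1 was 1.55 times this ratio (95% interval 1.44 to 1.66, two-sided Fisher's exact test, adjusted p = 1.81e-31) and 7SK 0.762 times (95% interval 0.713 to 0.813, two-sided Fisher's exact test, adjusted p = 1.06e-16). With the deepest interval of each alone, 7SK was again lower than the ribosomal protein genes but did not pass the threshold (0.875 times, 95% interval 0.762 to 1.00, two-sided Fisher's exact test, adjusted p = 0.0557). That comparison rests on fewer reads, so a loss of the difference is not shown. The plot of ratios by RNA has 7SK at the lower end and U1 between the ribosomal protein genes and 5S RNA, Rmrp and Rpph1. The place of 7SK at the lower end rests on chromosome 9, with a ratio of 2.64. The 7SK ratio of chromosome 2 (3.89) was above the summed ratio of U3 (3.66). That of chromosome 15 (4.58) was above both U3 and the ribosomal protein genes.

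**Figure D4:**
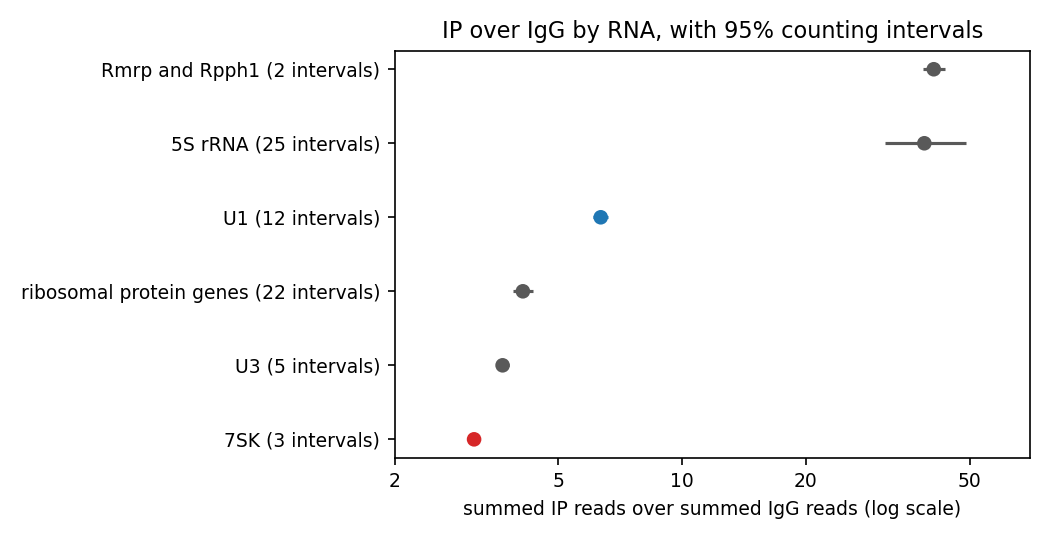
Summed IP reads over summed IgG reads for 6 sets of intervals, on a log axis, with 95% counting intervals as bars. U1 (6.34) and 7SK (3.12) are in blue and red, and 5S RNA (38.8) and the pair of Rmrp and Rpph1 (40.9) lie far to the right of both.

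Within the whole list, the ratios of all 15 intervals were in the lower part of the order. Among deep intervals alone, those of U1 and of 7SK on chromosomes 2 and 15 were above the median and that of 7SK on chromosome 9 was below it. By ratio the U1 intervals ranked from 386 to 490 of 673, and 7SK ranked 527 on chromosome 15, 574 on chromosome 2 and 663 on chromosome 9. The median ratio of the 561 other intervals with IgG reads was 8.57. Intervals with few reads are in the list only at a high ratio, so the ratio and the depth of listed intervals are tied. Among the 43 other intervals with at least 500 IP reads, a limit set after the values were seen, the median was 3.75. Of these, 9 had a higher ratio than U1 A, 13 a higher one than U1 B, 14 a higher one than 7SK of chromosome 15 and 38 a higher one than 7SK of chromosome 9. The 15 intervals hold 1.03% of all listed IP reads and 1.45% of the listed IgG reads.

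**Figure D5:**
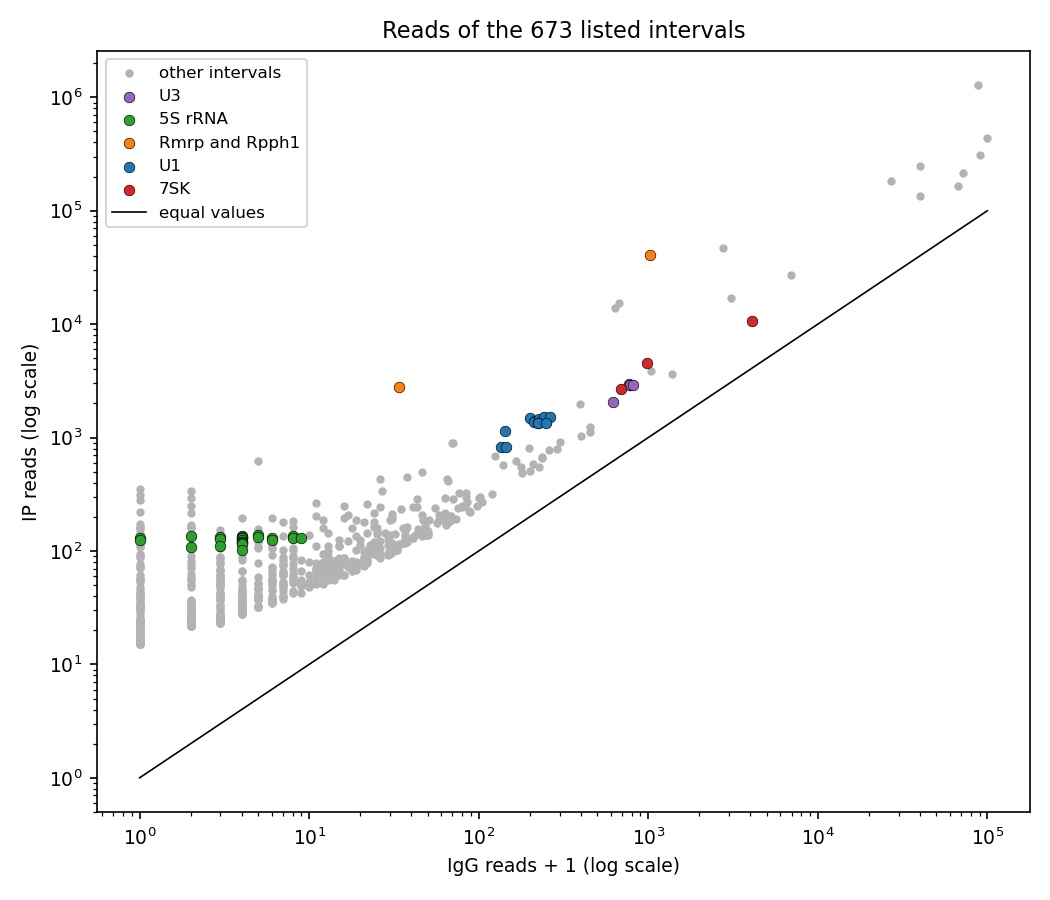
IP reads against IgG reads plus 1 for the 673 listed intervals, both on log axes, with the line of equal values. U1 (blue) and 7SK (red) lie among the deep intervals, near U3 (purple), whereas the 25 intervals of 5S RNA (green) have at most 8 IgG reads and both Rmrp and Rpph1 (orange) lie farther above the line than any U1 or 7SK interval.

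The list, which holds 753 gene names in all, was also searched for proteins that assemble with U1 or 7SK. Of 11 names for proteins of the U1 snRNP and the Sm ring, 2 are listed. Snrnp70, a protein of the U1 snRNP that binds the RNA directly, had 83 reads in the IP and 6 in the IgG, and a ratio of 13.8 (95% interval 6.09 to 38.8). Snrpb, a core Sm protein, had 57 and 10, and a ratio of 5.70 (95% interval 2.88 to 12.5). Of 11 names for the 7SK snRNP, P-TEFb and the hnRNP proteins that bind 7SK, 1 is listed, Hnrnpa2b1, with 140 reads in the IP, 24 in the IgG and a ratio of 5.83 (95% interval 3.76 to 9.41). Larp7, Mepce, Hexim1 and Cdk9 are not names in the list. All 3 of these intervals touch a 5′ UTR and coding bases, and all were called in the binomial test, as were 100% of the listed intervals. None of 16 names for other small nuclear RNAs, from U2 to U12, is listed. A name that is not listed has no value here, so it is not shown to lack reads in the IP. The share of all annotated genes that is listed was not at hand, so the counts of listed names were not compared with it.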

How the data were processed

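RNA immunoprecipitation and sequencing were done by the authors. According to the submitters' notes, TopHat2 2.0.9 and build mm9 were used for alignment. The interval caller, and what was done with reads that fit several copies, are not stated in the sources used here. The authors deposited, for each interval, the count of reads in the IP and in the IgG, the bases shared with each transcript, and their own comparison as a p-value, q-value and fold. The fold was the ratio of IP reads to IgG reads plus 1 in 673 of 673 intervals (relative tolerance 1e-04). The authors' p-values and folds served only to find how the table was made, and the q-values were not used. A binomial test with IgG reads multiplied by 1.64 and rounded to whole reads gave the deposited p-value in 560 of 560 intervals tested, within the same tolerance.

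The 673 intervals were tested with exact binomial tests, and sets or pairs of intervals with two-sided Fisher's exact tests on reads, at a threshold of 0.05 with Benjamini-Hochberg adjustment (Python 3.11.15, scipy 1.17.1). Intervals of confidence are at 95%. Starts were written counting from 1. The scripts were tested on simulated data. Named were all members, the genes at their intervals (1 is not reported here), and listed members of lists for proteins of the U1 and 7SK complexes and for other small RNAs. Members and lists were chosen with earlier results of these data known. Alternatives changed the expected IP share, the intervals counted and how they were summed. No sequence of U1 or 7SK was at hand, so their letters were not searched.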

Additional observations from a re-analysis of the deposited data

How the results depend on the processing

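U1 exceeded 7SK under all 8 alternative choices and sums of intervals, from 1.49 to 2.21 times, with 1.61 times by the median of the ratios, which has no test. Of these 8, 3 changed no interval and so gave 2.03 times again. Leaving out single intervals, chosen after seeing the data, gave 1.48 to 2.24 times. Of the 15 intervals called higher in the IP at an expected share of 0.5, 2 were called higher at the IP share of all listed reads. Over all listed intervals, 25.3% were called higher and 14.0% lower at that share. At the share without the 10 deepest intervals, also chosen after seeing the data, 6 were called higher, with no count over all listed intervals beside them. The 3 intervals of 7SK were called lower at both of these shares. Relative to the ratio of all listed reads, 5 intervals turned below 1: U1 B (0.951), U1 L (0.993) and 7SK of chromosomes 2 (0.676), 9 (0.460) and 15 (0.796). Without the 10 deepest intervals 7SK stayed below 1 on chromosomes 2 (0.738), 9 (0.502) and 15 (0.869). By medians U1 was 0.101 and 7SK 0.0625 times Rmrp and Rpph1, and 7SK was 0.970 times the ribosomal protein genes, against 0.875 times with the deepest intervals alone. With Holm in place of Benjamini-Hochberg adjustment, chosen after seeing the data too, 1 of 66 pairs of U1 copies again passed. The search for SMAUG recognition elements was not run. No paired analysis was possible because the table has 1 IP and 1 IgG column and no replicate numbers. The order of the U1 copies, which hold 134 to 262 IgG reads each, was not resolved. Limits of depth and reads shared between copies cannot be told apart here.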
